A study of Mus musculus with 2 samples.

Results

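Wide domains of H3K4me3 that lie away from the ends of protein-coding genes were described in mouse prospermatogonia, the cells of the fetal testis from which spermatogonia arise. Deposited peaks of chromosomes 1 to 19 that lay 1000 bp or less apart were joined, which gave 96251 domains. A domain was called wide when it measured at least 2000 bp from its first start to its last end, and away when no end of a protein-coding gene lay inside it or within 1 kb. By this rule 1728 domains were wide and away, which was 33.6% of the 5148 wide domains (95% Wilson interval 32.3 to 34.9) and 2.13% of all domains away from protein-coding gene ends. The domains were chosen by their measured width and by gene positions, so the widths, pileups and folds given here are descriptions, and no test was run on them. They were set beside the 3420 wide domains at protein-coding gene ends and the 79287 narrower domains away from them.

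The cells were sorted from embryos at E17.5 by an Oct-GFP reporter, and 130000 of them went into each CUT&RUN reaction, in which an antibody guides a nuclease to chromatin and the cut fragments are sequenced. One reaction used an antibody to H3K4me3, and a control reaction used rabbit IgG on the same kind of cells. There was 1 library of each kind and no replicate, and the strain and number of animals were not given in the sources used here. Values come from the H3K4me3 peak list alone, and the IgG library was not analysed here. The title of the series concerns TET1 catalytic activity, imprinting and sperm methylation, but the labels name no mutant cells in these 2 samples.

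H3K4me3 is laid down by the SET1 and MLL enzymes at promoters that are active or held ready for activity, above all at unmethylated CpG-rich sequence. It sits on the nucleosomes flanking a start site, and it repels the de novo DNA methylation machinery, which is at work in prospermatogonia at this stage. Genes can have further start sites inside their outermost boundaries, and noncoding RNA genes carry the mark at their own starts, so a promoter can lie far from every annotated protein-coding gene end.

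The promoter sequences of genes from the germ cell, pluripotency, chromatin and imprinted lists whose listed start sites fell inside such domains are shown first. For the 7 protein-coding genes among them these are start sites inside the outermost gene boundaries. Each runs 5′ to 3′ on the gene's strand, from 250 bases before the start to 50 bases after it, as RefSeq gives it for GRCm38.p6, the assembly of mm10. Capitals mark the CpG dinucleotides. The Dnmt3a window (chr12:3891494-3891793, plus strand) held 18 CpG, and its ratio of observed to expected CpG was 0.468. The Prdm1 window (chr10:44458699-44458998, minus strand) held 20, with a ratio of 0.766, and the Zdbf2 window (chr1:63273019-63273318, plus strand) held 38, with a ratio of 0.919. Gnas (chr2:174327499-174327798, plus strand) had 27 and 0.871, and Kmt2d (chr15:98871156-98871455, minus strand) had 27 and 0.917. The sequences of Esrrb (chr12:86421394-86421693, plus strand), Rarg (chr15:102246451-102246750, minus strand) and the noncoding Kcnq1ot1 (chr7:143296498-143296797, minus strand) were poorer, with 7, 10 and 9 CpG and ratios of 0.318, 0.504 and 0.422.
Dnmt3a: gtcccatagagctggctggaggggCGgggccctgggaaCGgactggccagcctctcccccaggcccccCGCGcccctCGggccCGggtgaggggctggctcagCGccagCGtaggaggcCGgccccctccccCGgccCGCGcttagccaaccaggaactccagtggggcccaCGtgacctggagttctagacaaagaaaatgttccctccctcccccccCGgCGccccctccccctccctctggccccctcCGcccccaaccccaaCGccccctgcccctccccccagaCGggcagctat
Prdm1: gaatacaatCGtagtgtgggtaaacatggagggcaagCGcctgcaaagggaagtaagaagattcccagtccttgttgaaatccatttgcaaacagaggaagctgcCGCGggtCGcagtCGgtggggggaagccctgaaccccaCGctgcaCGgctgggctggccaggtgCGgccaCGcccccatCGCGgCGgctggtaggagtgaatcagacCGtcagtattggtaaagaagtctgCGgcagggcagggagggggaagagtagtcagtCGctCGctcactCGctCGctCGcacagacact
Zdbf2: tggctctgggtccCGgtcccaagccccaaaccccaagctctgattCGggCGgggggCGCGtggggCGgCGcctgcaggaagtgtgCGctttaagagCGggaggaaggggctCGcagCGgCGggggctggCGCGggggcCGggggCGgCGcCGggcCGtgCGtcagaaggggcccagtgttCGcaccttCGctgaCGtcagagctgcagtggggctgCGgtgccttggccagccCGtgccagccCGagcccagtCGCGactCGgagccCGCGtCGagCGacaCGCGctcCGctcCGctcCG
Gnas: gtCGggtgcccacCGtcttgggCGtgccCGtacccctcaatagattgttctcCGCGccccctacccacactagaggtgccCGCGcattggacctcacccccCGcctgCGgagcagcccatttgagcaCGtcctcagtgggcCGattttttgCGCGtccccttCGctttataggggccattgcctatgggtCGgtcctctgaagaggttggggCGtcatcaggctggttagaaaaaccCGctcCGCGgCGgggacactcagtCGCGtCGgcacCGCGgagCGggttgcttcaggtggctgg
Kmt2d: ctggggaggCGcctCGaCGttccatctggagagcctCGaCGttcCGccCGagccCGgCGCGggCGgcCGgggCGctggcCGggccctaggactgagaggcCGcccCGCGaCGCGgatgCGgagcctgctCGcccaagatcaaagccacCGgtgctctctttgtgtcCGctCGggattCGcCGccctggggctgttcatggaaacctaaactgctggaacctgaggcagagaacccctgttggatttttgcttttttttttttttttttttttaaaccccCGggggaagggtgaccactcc
Esrrb: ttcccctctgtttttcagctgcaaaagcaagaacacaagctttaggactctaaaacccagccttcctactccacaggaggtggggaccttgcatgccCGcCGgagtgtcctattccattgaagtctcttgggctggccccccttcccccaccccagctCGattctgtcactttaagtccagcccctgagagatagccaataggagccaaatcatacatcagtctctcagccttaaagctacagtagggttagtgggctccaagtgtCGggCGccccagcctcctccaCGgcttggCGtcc
Rarg: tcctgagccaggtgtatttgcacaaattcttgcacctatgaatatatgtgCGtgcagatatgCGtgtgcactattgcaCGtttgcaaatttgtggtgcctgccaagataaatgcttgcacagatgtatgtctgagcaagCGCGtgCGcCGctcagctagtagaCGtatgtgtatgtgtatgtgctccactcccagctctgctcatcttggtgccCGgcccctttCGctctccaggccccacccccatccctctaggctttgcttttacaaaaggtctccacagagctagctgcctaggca
Kcnq1ot1: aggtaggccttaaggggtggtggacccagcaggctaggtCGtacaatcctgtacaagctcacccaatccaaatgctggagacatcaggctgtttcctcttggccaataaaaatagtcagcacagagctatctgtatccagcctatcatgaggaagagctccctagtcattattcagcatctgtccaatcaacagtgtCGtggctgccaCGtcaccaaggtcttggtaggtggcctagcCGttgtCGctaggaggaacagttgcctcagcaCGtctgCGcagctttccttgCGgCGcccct

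The labelled cell type was checked by peaks at gene ends. All 7 prospermatogonial marker genes (Ddx4, Dazl, Dppa4, Pou5f1, Mael, Piwil4 and Dnmt3l) had such a peak. The highest summit had 106 fragments at Pou5f1, and 30 to 38 at the other 6. Pou5f1 encodes OCT4, and as the sort used an Oct-GFP reporter it is no independent check. Among Sertoli markers 4 of 5 had one, with 34 to 46 fragments, at or above most of the prospermatogonial values. Among Leydig and interstitial markers it was 1 of 5, Nr2f2 with 39 fragments, and among endothelial and blood markers 1 of 5, Tek with 39. Of all autosomal protein-coding genes with a known strand, 11593 of 16457 (70.4%) had a peak within 1 kb of the outer 5′ boundary. Counts over so few marker genes therefore tell little about the cell type. H3K4me3 also marks silent promoters, so the marker peaks do not measure the share of other cells. The part of other cells in the domains below was not tested.

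The domains had a median width of 2268.5 bp (quartiles 2108 and 2512), and the widest reached 5559 bp. Most were joined from several peaks. A single peak made up 177 of them (10.2%), 2 peaks made up 744 (43.1%), 3 peaks 590 (34.1%) and 4 or more 217 (12.6%). Peaks covered a median of 1780 bp per domain, with a median of 578 bp in gaps. At the wide domains of gene ends the covered length was 1993 bp, and the gaps came to 368 bp. For each domain the pileup, fold and background are the highest over its peaks, so they can belong to different summits. The highest summit of a domain had a median pileup of 42 fragments (quartiles 36 and 48), against 45 at wide domains of gene ends and 27 at narrower domains away. Median fold over the local background was 5.47, against 5.17 and 6.94 in those groups, beside median backgrounds of 6.98, 7.82 and 2.54 fragments. The fold therefore ran in the opposite order to the pileup. At the threshold, Ston2 held a domain of 2000 bp with 39 fragments, Lmo3 one of 2000 bp with 50, and an intergenic domain on chromosome 2 had 2000 bp and 34 fragments. Just outside it lay domains of 1999 bp inside Tnxb, with 37 fragments, and between genes on chromosomes 6 and 17, with 35 and 43.

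Intergenic sequence held 758 of the 1728 domains (43.9%, 41.5 to 46.2), against 64.0% of narrower domains away. Inside a protein-coding gene, with no end of a noncoding gene nearby, lay 562 (32.5%), against 24.6%. An end of a noncoding gene lay inside or within 1 kb of 332 (19.2%, 17.4 to 21.1), against 5.29% of narrower domains and 19.1% of wide domains at gene ends, and in 5.59% of all domains away. Only inside a noncoding gene were 76 (4.40%), against 6.20%. Counted regardless of noncoding ends, 685 (39.6%) lay inside a protein-coding gene, where 25.9% of all domains away did. The ends of pseudogenes stood at 150 (8.68%, 7.44 to 10.1), against 1.14% of wide domains at gene ends and 3.93% of narrower domains away, with 4.03% over all domains away. A wider domain meets more ends of noncoding genes and pseudogenes by its length alone, and these shares were not adjusted for length. The intervals of these shares cover counting error only, and with 1 library no test between groups was made.

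**Figure D1:**
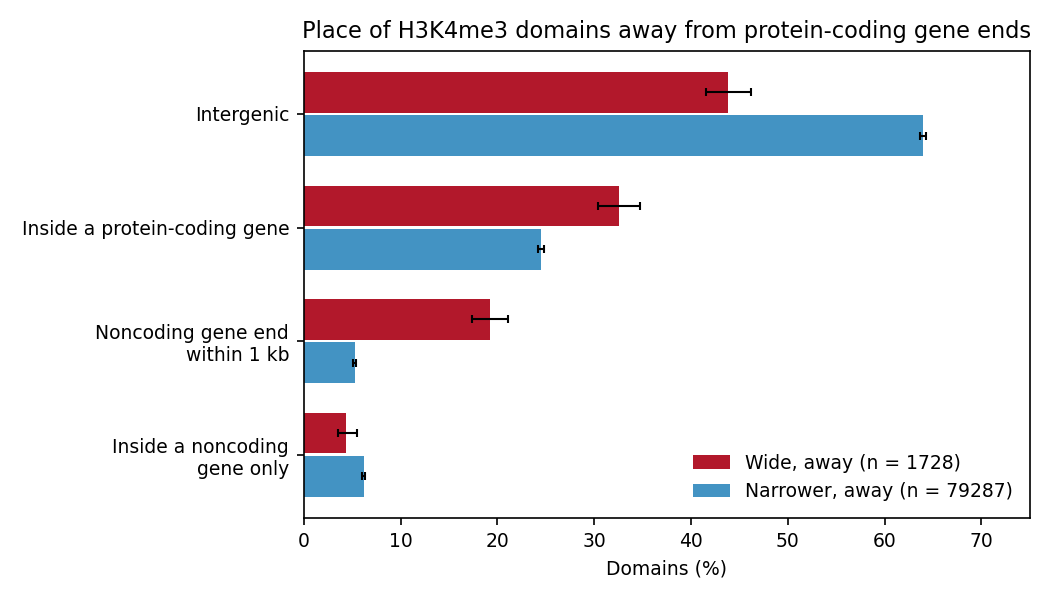
Share of domains away from protein-coding gene ends in each place, for 1728 wide and 79287 narrower domains, with 95% Wilson intervals as error bars. The wide domains had 19.2% at noncoding gene ends, against 5.29% of the narrower ones, and 43.9% between genes, against 64.0%. Shares are not adjusted for domain width.

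Though kept off protein-coding gene ends by the rule, the domains lay nearer to them than narrower domains did. The median distance to the nearest such end was 27.7 kb, against 64.6 kb. Between 1 and 5 kb lay 18.4%, against 9.08%, and over 500 kb lay 7.12%, against 14.6%. Among the places, domains inside protein-coding genes had a median distance of 11.3 kb, those at noncoding ends 20.4 kb and intergenic ones 50.02 kb. Along the genome the nearest other such domain was a median of 416 kb away, and 194 (11.2%) had another within 50 kb. Chromosome 2 held the most, 135, and chromosome 19 the fewest, 45. As a share of domains away they ran from 1.601% on chromosome 3 to 2.99% on chromosome 13.

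A listed start of a protein-coding gene lay inside 271 (15.7%, 14.0 to 17.47), against 72.5% of wide domains at gene ends and 1.20% of narrower domains away. Over all domains away it was 1.51%. A wider domain meets more starts by its length alone, and per Mb of domain the starts came to 85.2, against 390 at gene ends and 17.8 in narrower domains. The start table used here has no entry on chromosome 18, and without that chromosome the shares were 16.1%, 75.5% and 1.24%. Listed lncRNA starts lay inside 156 (9.03%, 7.77 to 10.5), against 11.7% and 1.74%, with 1.89% over all domains away. Per Mb of domain the lncRNA starts came to 46.2, against 57.0 at gene ends and 25.7 in narrower domains, a smaller contrast than that of the shares. A listed start or a noncoding gene end lay at 543 of the domains (31.4%, 29.3 to 33.7), against 6.45% of the narrower ones, shares not adjusted for length. The 758 intergenic domains had neither, which follows from how that place was defined. Also with neither were 353 inside protein-coding genes (20.4%, 18.6 to 22.4, against 23.5% of narrower domains away) and the rest, which lay only inside a noncoding gene.

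These shares climbed with width among all domains away from gene ends. Protein-coding starts lay in 0.154% of domains under 500 bp, in 0.616% of those from 500 to 1000 bp, in 1.95% up to 1500 bp and in 7.69% up to 2000 bp. They lay in 14.7% of domains from 2000 to 2500 bp, in 18.5% up to 3000 bp and in 18.7% of the 91 domains of 3000 bp or more. The last 3 values have overlapping intervals, of 12.8 to 16.7, 14.8 to 22.8 and 12.004 to 27.9. The share just below the threshold, 7.69%, also exceeded that of every narrower class. Starts per Mb were 5.43 in the narrowest domains and 53.5 in those just under 2000 bp, and 85.7, 85.9 and 78.2 in the 3 widest classes.

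**Figure D2:**
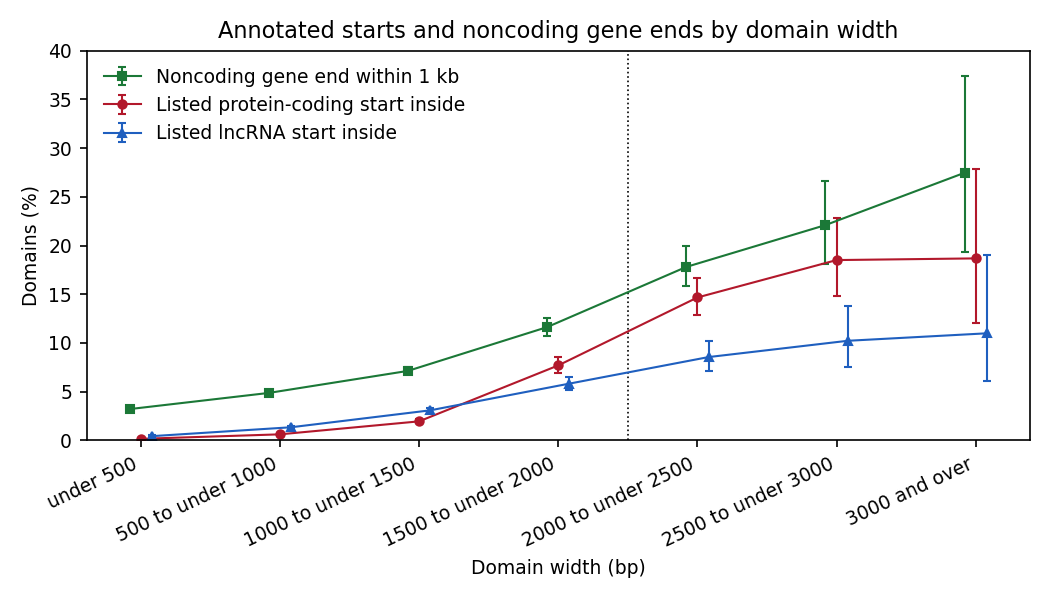
Share of domains away from protein-coding gene ends with a noncoding gene end within 1 kb, a listed protein-coding start inside or a listed lncRNA start inside, by domain width in bp; bars are 95% Wilson intervals and the dotted line marks 2000 bp. The protein-coding share was 0.154% in the narrowest class and 18.7% in the widest.

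For 145 of the 271 genes every listed start lay inside the domain, and for 126 another listed start lay elsewhere. In the 145, the table lists no start at the outer 5′ boundary of the gene. A peak lay within 1 kb of the outer 5′ boundary in 114 of the 271 genes (42.1%, 36.3 to 48.0), against 11593 of 16457 of all genes with a known strand (70.4%). The rule itself lowers this share where the boundary is close, since a peak there could be joined to the domain and take it out of the set, so the 2 shares are no measure of a difference. Among the 126 genes with a further listed start it was 76 (60.3%, 51.6 to 68.4). Hivep2, a zinc finger transcription factor gene, had its only listed start in a domain of 3758 bp made of 5 peaks, 4.77 kb inside the outer boundary, where no peak lay. Agap2, a GTPase-activating protein gene, had one of 4495 bp made of 7 peaks. Robo1, an axon guidance receptor gene, had its listed start in a domain of 2504 bp with 49 fragments, 636 kb inside the boundary, and a peak of 48 fragments lay at the boundary as well.

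Domains reached farther downstream of the listed start than upstream. The median reach was 1425 bp downstream and 911 bp upstream, and the downstream side was longer in 207 of 271 domains (76.4%, 71.0 to 81.0). At wide domains of gene ends the medians were 1322 and 982 bp, with 67.2% longer downstream, and at narrower domains away 765.5 and 505.5 bp, with 71.1%. Where the outer gene boundary was close, the rule itself limited the upstream reach, which does not apply to the wide domains at gene ends. The start often fell in the space between joined peaks. Of the 232 domains with at least 2 peaks and a protein-coding start, 81 (34.9%, 29.1 to 41.2) had the start in a gap, while gaps took up 21.6% of their length. At wide domains of gene ends it was 33.6% (31.6 to 35.6) with 20.8% of the length, and at narrower domains away 19.2% (14.8 to 24.5) with 16.7%. For lncRNA starts in the wide domains away it was 23.2% (16.9 to 30.9) with 26.3%, so there the share was not above that of the length. Gaps lie between peaks and never at the edge of a domain. Their share of the length is therefore no exact expectation for a start inside, and the differences were not tested.

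**Figure D3:**
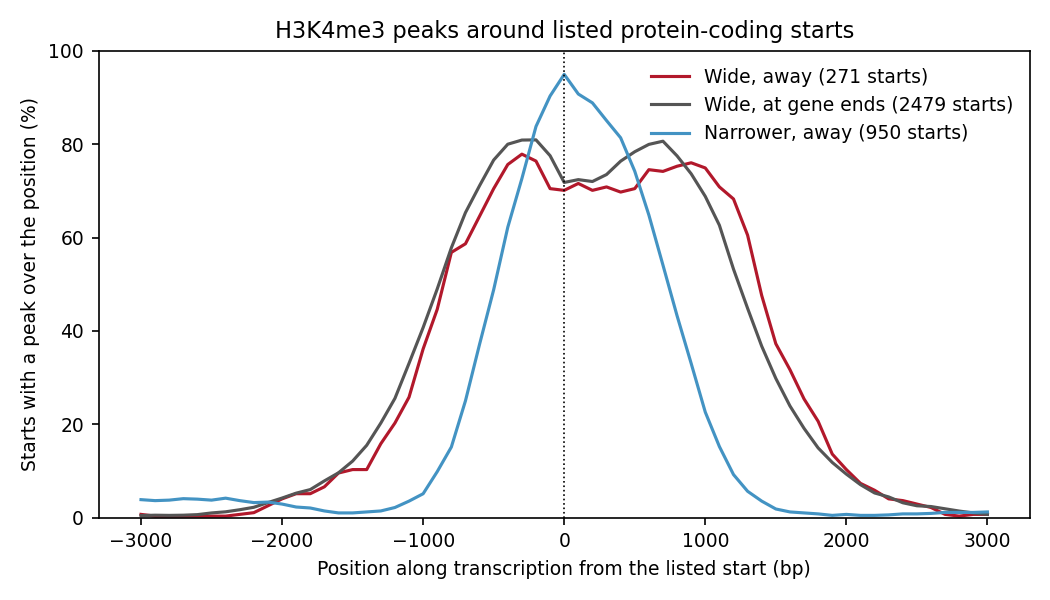
Share of listed protein-coding starts with a deposited peak over each position, from 3000 bp before to 3000 bp after the start along transcription, for 1 start per domain. In the wide domains away the share was 77.9% at 300 bp before the start, 70.1% at the start and 76.0% at 900 bp after it; narrower domains away had a single top of 94.9% at the start.

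The listed starts inside the domains were CpG-rich. Over the 300-base windows of 348 protein-coding starts the median ratio of observed to expected CpG was 0.789, and 77.0% (72.3 to 81.1) reached 0.6, a common limit for CpG islands. Starts in narrower domains away had a median of 0.627, with 53.5% at or above 0.6. Starts over 1 kb from any protein-coding gene end that no domain covered had 0.221 and 6.86%, and starts in wide domains at gene ends had 0.836 and 83.2%. Read the other way, starts in domains at gene ends were left out of the counts. Of the remaining 978 starts away from gene ends with a ratio of at least 0.6, 27.4% lay in a wide domain away, 60.0% in a narrower one and 12.6% in none. Of 2259 with a lower ratio, 3.54% lay in a wide domain away, 22.6% in a narrower one and 73.9% in none. The lncRNA starts were poorer in CpG, with a median of 0.550 in the wide domains away and 42.9% at or above 0.6, against 21.8% in narrower domains and 2.69% in no domain.

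**Figure D4:**
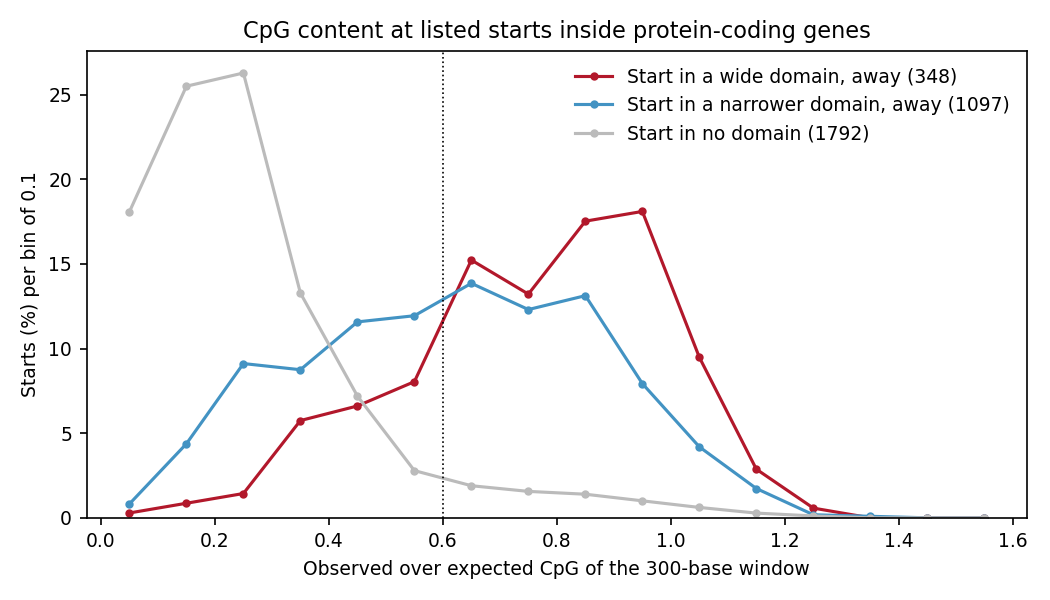
Distribution of the ratio of observed to expected CpG in the 300-base windows of listed protein-coding starts over 1 kb from a protein-coding gene end, as percent of starts per bin of 0.1; the dotted line marks 0.6. Starts in wide domains away lay to the right, with a median of 0.789, against 0.627 in narrower domains and 0.221 in no domain.

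Short promoter motifs were counted in the same windows on both strands, as letters only. The GC box GGGCGG was found at 71.6% of protein-coding starts in the wide domains (66.6 to 76.0), against 54.9% in narrower domains away, 15.4% in no domain and 47.0% of all 20085 listed protein-coding starts. TATAAA was found at 4.89%, against 6.75%, 15.8% and 12.7%. CCAAT was found at 30.5%, against 34.1%, 35.5% and 38.1%. The E-box CACGTG was found at 7.18%, against 7.84%, 3.79% and 7.89%. TTTCCCGC, a form of the E2F motif, stood at 1.15%, against 1.41% of all starts. The GC box holds a CpG, so its share moves with the CpG content given above. Of the sequences printed, Dnmt3a held GGGCGG and CACGTG, Zdbf2 and Kmt2d held GGGCGG, Gnas held CCAAT and TATAAA, Prdm1, Esrrb and Kcnq1ot1 held CCAAT, and Rarg held none of these motifs.

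Genes of the germ line and of chromatin were represented by single domains. At Dnmt3a, which encodes a de novo DNA methyltransferase, the domain measured 2044 bp (chr12:3890810-3892853) and was joined from 2 peaks, with 40 fragments (exact Poisson interval 28.6 to 54.5) and a fold of 6.28. The listed start at 3891744 lay in the gap between both peaks. No peak lay at the outer 5′ boundary, 90.2 kb away, and no peak covered the 2 other listed starts, whose ratios were 0.964 and 1.06. The start at 3891744 was under no peak either, so this does not show that the mark was missing beside the 2 others. An internal promoter of Dnmt3a is known to give the shorter form Dnmt3a2, the main form in embryonic stem cells and germ cells, but the table names no transcript for this start. Prdm1, the repressor that specifies primordial germ cells, held a domain of 2967 bp (chr10:44456746-44459712) with 46 fragments at its only listed start, and a further peak of 50 fragments lay at its outer boundary, 69.8 kb away. Kmt2d, an H3K4 methyltransferase gene, had 2087 bp and 34 fragments at its only listed start, and no peak at the outer boundary 2.87 kb away.

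Rarg, a retinoic acid receptor gene of spermatogonia, had 2030 bp and 43 fragments at an internal start, beside a peak of 44 fragments at the outer boundary. Esrrb, a nuclear receptor of the pluripotency network, had 2410 bp with 45 fragments at an internal start, while the peak at its outer boundary had 16. Gtsf1, a piRNA factor gene, held a domain of 2281 bp with 26 fragments at the end of Gm52195, 8.26 kb from its own end. Near Id4, a regulator of spermatogonial stem cells, a domain of 2505 bp with 44 fragments lay 29.4 kb away. Near Prdm9, which sets the sites of meiotic recombination, one of 2003 bp with 43 fragments lay 11.5 kb away. Near Zfp42 it was 2229 bp and 39 fragments at 21.6 kb, and near Fkbp6 2333 bp and 33 fragments at 14.4 kb.

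Counted over the lists, a domain lay inside or within 50 kb of the nearest end for 1 of 19 germ cell identity genes, 2 of 22 spermatogonial genes, 2 of 23 piRNA genes and 1 of 26 meiosis genes. It was 3 of 16 pluripotency genes, 1 of 20 DNA methylation genes and 1 of 21 genes of H3K4 and H3K27 enzymes. Over all 20665 autosomal protein-coding genes the share was 5.66%, and 1.31% had a listed start inside such a domain. Below 5.66% were germ cell identity (5.26%), meiosis (3.85%), DNA methylation (5%) and H3K4 and H3K27 enzyme genes (4.76%). Above it were spermatogonial (9.09%), piRNA (8.70%) and pluripotency genes (18.8%), on 2 or 3 genes each. A gene counted as near a domain only where its end was the nearest protein-coding gene end to that domain. Long genes and genes far from others can count more often by this rule, and length and spacing were not matched. No test was made on these counts.

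Imprinted genes, which are expressed from one parental allele, stood at 7 of 43 (16.3%), against 5.66%. At Kcnq1ot1, the antisense noncoding RNA whose promoter lies in a maternally methylated control region, a single peak of 2161 bp with 50 fragments (37.1 to 65.9) spanned the start inside Kcnq1. At Peg13, a paternally expressed noncoding RNA inside Trappc9, a single peak of 2198 bp had 47 fragments (34.5 to 62.5). At Zdbf2, a paternally expressed gene, the domain measured 2324 bp with 35 fragments, the listed start lay in its gap, and the upstream listed start, 72.9 kb away, had a peak of 39 fragments. At Gnas, which has several promoters imprinted in opposite directions, a domain of 3012 bp from 5 peaks held 2 listed starts, both in gaps, with 42 fragments, while the outer boundary 43.4 kb upstream had a peak of 53 fragments. Impact, on chromosome 18 where no starts were listed, held a domain of 2636 bp with 35 fragments, 17.3 kb from its end. Domains near Dlk1 (2001 bp, 39 fragments, 14.2 kb away) and Cdkn1c (2006 bp, 33 fragments, 11.7 kb away) were intergenic. The peak list does not separate parental alleles.

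Genes of developmental transcription factors and signals stood at 15 of 48 (31.2%), against 5.66%. In embryonic and germ cells the promoters of such genes often carry H3K4me3 together with H3K27me3, which was not measured here. Domains lay inside 4 of them. Gata4, a transcription factor of heart and gonad, held 2296 bp with 40 fragments at 1.78 kb from its end and had no peak at the end itself. Meis1, a cofactor of HOX proteins, held 2511 bp with 51 fragments. Bmp4, a growth factor gene, held 2080 bp with 45 fragments, and Pax6, which directs eye development, held 2166 bp with 47 fragments beside another domain of 2744 bp with 44 at the end of the noncoding RNA Paupar.

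The other 11 genes of this list had domains outside their bodies. A domain of 3605 bp with 50 fragments lay in Sox2ot, the noncoding RNA gene that overlaps Sox2, 9.07 kb from the Sox2 end, and one of 2244 bp with 42 fragments lay in Sox1ot. Pax2 had 2 of them, of 2535 and 2529 bp with 36 and 49 fragments. Hoxa13 had one of 2011 bp with 53 fragments at 4.62 kb and Emx2 one of 2282 bp with 42 at 2.17 kb. Tbx15, Pax3, Nkx2-1 and En2 had 50, 38, 49 and 49 fragments, with domains 4.35, 4.93, 10.3 and 40.4 kb away.

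Markers of somatic cells of the testis also held such domains or had the nearest gene end to one within 50 kb. Among Leydig and interstitial genes it was 4 of 14 (28.6%), against 5.66% over all genes. Lhcgr, the luteinizing hormone receptor gene, held one of 2865 bp with 37 fragments and Gli1 one of 2303 bp with 44. Near Nr2f2 one of 2941 bp with 51 fragments lay 1.13 kb from its end, and near Tcf21 one of 2073 bp with 40 lay 37.55 kb away. Among Sertoli genes it was 2 of 16 (12.5%), and both held one, Gata4 as given above and Dhh, a hedgehog ligand gene, with 2318 bp and 41 fragments. Among endothelial and blood genes it was 3 of 16 (18.8%). Runx1 held one of 2038 bp with 47 fragments, while those of Flt1, 2064 bp with 37 fragments, and Erg, 2592 bp with 38, lay 25.02 and 15.4 kb away. Of the 5 endothelial and blood markers checked, Pecam1, Cdh5, Ptprc and Csf1r had no peak at an end, and of the 5 Leydig and interstitial markers Cyp17a1, Hsd3b1, Insl3 and Star had none.

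Of the 332 domains at a noncoding gene end, 294 were at an end of a lncRNA gene, which involved 317 lncRNA genes. Named lncRNAs, picked out after their values were seen, included Malat1, an abundant nuclear RNA, with 2735 bp and 32 fragments, and Miat, with a single peak of 2446 bp and 43 fragments. Pvt1, which neighbours Myc, had a single peak of 2019 bp and 41 fragments. Chaserr, which restrains Chd2, had 2390 bp and 39 fragments, Halr1 in the Hoxa region 2052 bp and 33, and Lockd beside Cdkn1b 2644 bp and 39. Zeb2os shared a domain of 2635 bp with a start of Zeb2, with 39 fragments.

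Transfer RNA genes were the noncoding class with the largest share of its genes at these domains among classes with at least 100 genes. Their ends were at 23 domains, which involved 47 of 391 autosomal tRNA genes (12.02%), against 2.55% of lncRNA genes and 1.58% of miRNA genes. They were at 1.33% of the wide domains (0.889 to 1.99), against 0.155% of narrower domains away, shares that were not adjusted for domain length. At least 2 tRNA genes lay at 14 of the 23, and 8 of the 23 lay on chromosome 13, which carries 105 of the 391 genes. Summit pileups ran from 34 to 88 fragments, with a median of 47. On chromosome 1, a domain of 3754 bp (chr1:171078049-171081802) was made of 6 peaks and had ends of 5 tRNA genes inside it or within 1 kb. It had 88 fragments and a highest background of 27.2. Its neighbour of 2958 bp had ends of 4, with 83 fragments and a highest background of 32.5. Genes for tRNAs are near-identical copies, so fragments of one copy can be placed at another, and the part of this was not tested.

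MicroRNA genes had ends at 16 domains. The mature sequences of those best known in development are shown, with the seed, bases 2 to 8, in capitals, as RefSeq gives them for GRCm38.p6. The members miR-193a-3p and miR-193b-3p share the seed ACUGGCC, and no other pair printed shares one.
let-7i-5p: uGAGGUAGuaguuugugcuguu
miR-9-5p: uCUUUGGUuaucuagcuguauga
miR-137-3p: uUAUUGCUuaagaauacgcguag
miR-148a-3p: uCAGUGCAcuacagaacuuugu
miR-193a-3p: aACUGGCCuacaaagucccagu
miR-193b-3p: aACUGGCCcacaaagucccgcu
miR-22-3p: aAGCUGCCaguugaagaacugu
miR-130a-3p: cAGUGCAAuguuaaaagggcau

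Of the 15 miRNA genes with a sequence in the table, 9 had the hairpin inside the domain and the others within 1 kb. Mirlet7i, of the let-7 family that restrains proliferation, had its hairpin inside a domain of 2130 bp with 38 fragments, on chromosome 10, 5.11 kb from Mon2. Mir9-2 and Mir137, both known from neural development, had 2342 bp with 46 fragments and 2297 bp with 40. Mir148a had 2223 bp with 41, and Mir193a 2355 bp with 36. Mir193b had its hairpin outside, beside a domain of 2022 bp with 43 fragments, and so had Mir22, at 2843 bp and 50, and Mir130a, at 2361 bp and 44. Mir499, a miRNA of heart muscle encoded in Myh7b, lay beside a domain of 2638 bp with 35. All 8 miRNAs printed had pileups between 36 and 50 fragments, near the median of 42 over all these domains.

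Inside protein-coding genes the domains gathered in long genes. They were held by 630 genes with a median length of 94.5 kb, against 17.49 kb over all autosomal protein-coding genes, and longer genes offer more sequence away from an end. A single gene held 2 or more in 48 cases, which took in 107 domains, and 3 or more in 7 cases. Tenm3, a cell adhesion gene of neurons, held 6, of 2065 to 3258 bp with 32 to 49 fragments, and 1 of these covered its only listed start. Adgrb3, Asic2, Nrg1 and Ptprd, which encode an adhesion receptor, an ion channel, a growth factor and a receptor phosphatase, held 3 each. Rai1, at 94.3 kb the shortest of the 7, held 3 with 42, 46 and 40 fragments, while the median length of the 7 was 1084 kb. The domains of Nrg1 were all at ends of noncoding genes inside it.

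The highest pileups belonged to intergenic domains over a high local background. On chromosome 9, 3 domains (chr9:3000046-3004765, chr9:3012190-3015454 and chr9:3023454-3025954) had 298, 211 and 299 fragments. Their highest backgrounds were 118, 101 and 118 and their highest folds 3.84, 2.71 and 2.52, each taken separately over the peaks of a domain. One on chromosome 14 of 3771 bp had 283 fragments with a highest background of 62.2, and one on chromosome 2 of 3009 bp had 275 with 53.7. A background of over 20 fragments was found at 16 of the 1728 wide domains away, 9 of them intergenic, against 4 of the 3420 wide domains at gene ends. No such count is given for the 79287 narrower domains away, where the highest background reached 122 and the highest pileup 316. The widest of all, 5559 bp on chromosome 17 at the end of AY036118 and beside the ribosomal RNA pseudogene Rn18s-rs5, was among the 16. It had 163 fragments and a highest background of 67.2. In all, 5 of the 12 widest were among the 16. Multi-copy sequence was not filtered out and IgG values were not analysed, so the part of repeated sequence in these was not tested. Without the 16, the median pileup remained 42 and the highest was 152.

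The widest domains with a lower background had 37 to 55 fragments. They were 4505 bp in Kctd1 with 55, 4495 bp at the Agap2 start with 41, 3983 bp in the noncoding Gm40331 with 37 and 3912 bp in Cracd with 44. Next came 3845 bp at the end of 6530402F18Rik with 40, 3829 bp beside the pseudogene Gm16505 with 46 and 3758 bp at the Hivep2 start with 52. Kctd1 lies on chromosome 18, where no starts were listed, so whether its domain covers a start is not known. The highest folds were 11.5 in an intergenic domain on chromosome 16 with 70 fragments, 11.1 near Gm9758 on chromosome 5 with 152, and 10.5 on chromosome 1 with 86, 1487 kb from the nearest protein-coding gene end. Then came 9.62 inside the noncoding Gm30417 with 108.

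**Figure D5:**
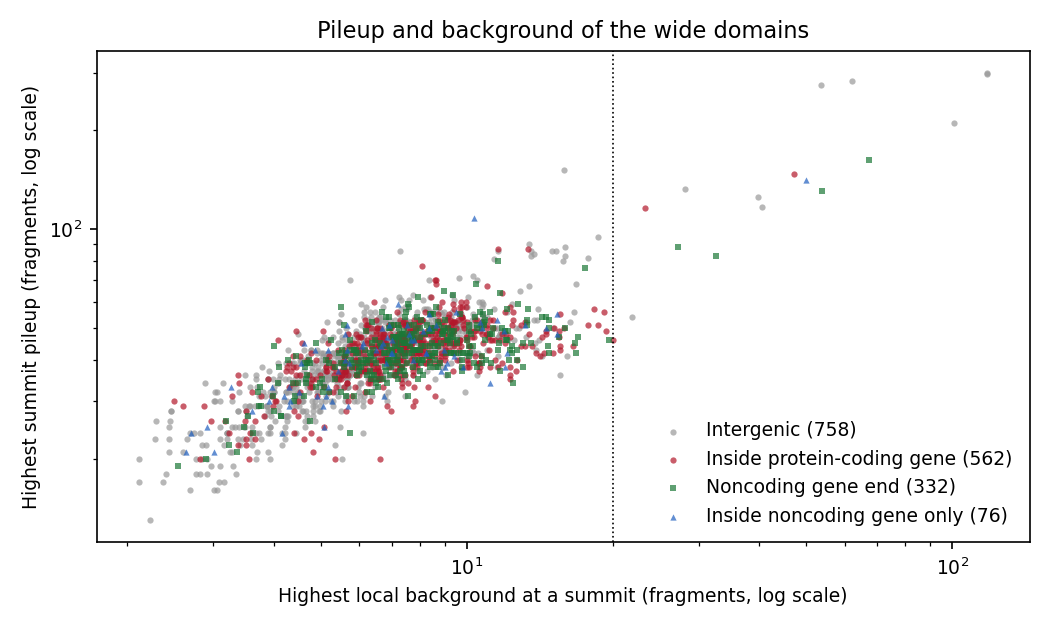
Highest summit pileup against highest local background at a summit, in fragments on log scales, for the 1728 wide domains away from protein-coding gene ends, coloured by place; the dotted line marks a background of 20 fragments. Most domains lie in one cloud around 42 fragments, and 16 domains, 9 of them intergenic, lie beyond the line.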

How the data were processed

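H3K4me3 was measured by CUT&RUN in 1 library, and no replicate exists. MACS2 2.1.0, Bowtie2 2.5.0, deepTools 3.5.1, SAMtools 1.16.1, Trim Galore and bedtools 2.27.1, with builds mm10 and sacCer3, were named in the submitters' processing notes. Their roles and settings were not given in the sources used here. For the H3K4me3 library the authors deposited 135064 peaks, each with a score, a fold enrichment at the summit (a ratio over local background) and −log10 p-values and q-values. The lowest −log10 q was 2.07. These are the authors' values for single peaks and serve only to describe and filter within the list.

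The summit pileup and background were solved from the deposited fold and −log10 p, with the fold as pileup plus 1 over background plus 1 and a Poisson tail, within 0.0001. This gave 122470 of 122479 autosomal peaks, and 0 peaks of the described domains were left unsolved. Total depth was not given in the sources used here, so pileups are the depth behind each domain. Gene extents, listed starts and miRNA sequences came from RefSeq tables of GRCm38.p6. Starts were listed for 16457 of 20665 autosomal protein-coding genes, 0 of them on chromosome 18. Of 13797 genes with a single listed start, 9.52% had it over 1 kb inside the gene extent. No genome sequence was used, so CpG content is known only at listed starts. Intervals are 95% Wilson for shares and 95% exact Poisson for pileups; fragments carry no molecular identifiers, and intervals cover counting error only.

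Members and gene lists were chosen with earlier results of these data known. Named were, by rule, the 12 widest domains, the 5 widest of each place, the 5 of highest pileup and of highest fold, the 3 nearest the threshold on each side and genes holding 2 or more. The rule also named domains in or at a list gene, and those whose nearest protein-coding gene end, within 50 kb, was that of a list gene. Not all of these are printed, and some items that the rule names are not reported here. Other genes were picked after their values were seen. With 1 library no test and no p-value was computed. Alternatives covered join gaps, stricter peaks, other widths and gene end distances. Joining and placing were tested on simulated peak lists, where 6307 of 6307 planted domains were found with 0 extra, and 431 of 431 simulated pileups were recovered. Peak calling was not simulated. The pileups were simulated with the formula that was then solved and stayed below the highest ones reported. Their recovery therefore checks the solving step only, not whether the deposited values follow the formula. Software was pandas 2.3.3, numpy 2.4.6, matplotlib 3.10.9 and scipy 1.17.1 under Python 3.11.15.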

Additional observations from a re-analysis of the deposited data

Results flagged for a closer look

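Wide domains also occurred outside chromosomes 1 to 19, in peaks that the comparisons above did not use. On unplaced and alternative sequences there were 10 domains of at least 2000 bp, the widest of 2835 bp. On the X chromosome 68 of 156 wide domains lay away from protein-coding gene ends, and on the Y chromosome 2 of 10. No control values were used to set these against, and they are given as counts.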

How the results depend on the processing

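Leaving out a replicate was not possible with 1 library. No paired analysis was possible because there was 1 H3K4me3 library and no replicate number to pair. Of 65 values under 11 alternatives, 24 stayed within the interval of the value reported or, for the count, within 1.5 times, and 41 moved further; the cause was not tested. The number of domains, 1728, was 188 with touching peaks joined only, 979 with a gap of 500 bp, 5461 with 3000 bp, 917 with a fold of at least 4, 493 by summed peak length and 91 at 3000 bp or more. The share of wide domains that lay away was 24.1%, 28.0% and 52.5% at gaps of 0, 500 and 3000 bp, 22.7% by summed length, 21.9% at 3000 bp, 39.2% with only ends inside counted, 27.4% with ends within 5 kb and 45.5% with listed starts in place of ends. Inside a protein-coding gene lay 51.6%, 45.5% and 27.7% at those gaps, 49.9% by summed length, and 47.2%, 32.1% and 23.3% under those 3 rules on ends. Noncoding gene ends were at 15.4% with a gap of 0, 14.0% with 3000 bp, 23.7% by summed length and 27.5% at 3000 bp. The median distance was 21.7, 23.3 and 40.3 kb at the gaps, 31.0 kb with a fold of at least 4, 18.9 kb by summed length, 24.1 kb at 3000 bp, and 18.1, 41.5 and 7.22 kb under the rules on ends. Protein-coding starts lay inside 21.8%, 20.4% and 6.32% at the gaps, 24.7% by summed length, 18.7% at 3000 bp, 20.2% with only ends inside counted and 10.2% with ends within 5 kb. With listed starts in place of ends that share has no value by construction. Chosen after the data were seen, leaving out domains with a background of over 20 fragments gave 1712 domains. Under −log10 q of at least 5 there were 1489.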
